A study of Homo sapiens with 18 samples.

Results

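The 10 genes followed here belong to the TNF superfamily and are 4 ligands (TNFSF18, TNFSF10, TNFSF15 and LTB) and 6 receptors (TNFRSF21, TNFRSF10A, TNFRSF10B, TNFRSF1A, TNFRSF12A and FAS). They were taken by gene name from the count files of all 18 libraries and make up 10 of 36601 genes. Messenger RNA was sequenced from 3 human cholangiocarcinoma lines, KKU-100, YSCCC and HuCCT1, which derive from carcinoma of the bile ducts. Each line carried a stably integrated lentiviral short hairpin, either shRNF213#2, directed against RNF213 (labelled RNF213 knockdown), or shControl (labelled WT), with 3 biological replicates per line and hairpin. RNF213 encodes a large cytosolic ubiquitin ligase. The 6 groups were therefore KKU-100, YSCCC and HuCCT1 with shRNF213#2 and the same lines with shControl. All 6 share lentiviral transduction, 1 hairpin stands for the knockdown, and KKU-100 grew in Ham's F12 where the other two lines grew in RPMI-1640, so line and medium differ together.

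TNF family ligands are trimers, mostly anchored in the membrane, that cluster trimeric receptors on the same or a neighbouring cell. Receptors with a cytoplasmic death domain can assemble FADD and caspase-8 and start apoptosis, or recruit TRADD, RIPK1, TRAF2 and ubiquitin ligases and switch on NF-kappaB, and receptors without a death domain bind TRAF proteins directly. TNFSF10 is TRAIL, and TNFRSF10A and TNFRSF10B are its death receptors; TNFRSF1A is the main receptor of TNF; FAS binds FASLG; TNFRSF21 is death receptor 6; TNFRSF12A, the receptor of TNFSF12, has no death domain. TNFSF18 is the ligand of TNFRSF18, TNFSF15 the ligand of TNFRSF25, and LTB pairs with LTA to engage LTBR.

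Promoter sequence is shown for the ligand that was high together with interferon-stimulated genes in replicate 2 of HuCCT1 (TNFSF10), the ligands that fell in 1 line (LTB and TNFSF18) and the receptor that rose in 2 lines (TNFRSF21). The 250 bases before the RefSeq start (GRCh38.p14) were searched on both strands for 4 motifs in the 7 of 10 genes with an entry: kappa-B (GGG, any 2 bases, then TTTCC), ISRE (GAAA, any 2 bases, then GAAA again), GAS (TTCNNNGAA) and the TATA box (TATAAA). Each was found in 1 of the 7 genes, and no match overlapped another. Over 35116 promoters of the same length the letters occurred in 1.73% for kappa-B, 3.02% for ISRE, 6.57% for GAS and 10.7% for TATA. TNFSF10 held the ISRE and the TATA letters, and LTB held the kappa-B and the GAS letters. TNFSF18 and TNFRSF21 held none of the 4 motifs in this window. Sequences run 5′ to 3′ on the minus strand and have motif letters in capitals. All but the shorter LTB stretch end where the gene body in the files begins. In TNFSF10 (chr3:172523476-172523680) the capitals are the reverse complement of an ISRE match. In LTB the capitals of the longer stretch (chr6:31582523-31582675) are the GAS match, and those of the 30 bases downstream of it (chr6:31582492-31582521) are the reverse complement of the kappa-B match. These 30 bases lie before the RefSeq start but inside the gene body given in the files (chr6:31580525-31582522). The other two stretches are TNFSF18 (chr1:173050964-173051191) and TNFRSF21 (chr6:47309906-47310155).
TNFSF10: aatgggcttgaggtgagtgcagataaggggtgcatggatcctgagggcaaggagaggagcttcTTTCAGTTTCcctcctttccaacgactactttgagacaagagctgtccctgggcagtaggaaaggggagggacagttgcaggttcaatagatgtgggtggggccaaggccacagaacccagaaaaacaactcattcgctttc
LTB, GAS: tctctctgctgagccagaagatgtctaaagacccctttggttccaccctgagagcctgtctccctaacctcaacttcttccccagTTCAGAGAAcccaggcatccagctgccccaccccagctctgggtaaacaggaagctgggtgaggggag
LTB, kappa-B: aggggtgtgcGGAAAGTCCCagccaggtgt
TNFSF18: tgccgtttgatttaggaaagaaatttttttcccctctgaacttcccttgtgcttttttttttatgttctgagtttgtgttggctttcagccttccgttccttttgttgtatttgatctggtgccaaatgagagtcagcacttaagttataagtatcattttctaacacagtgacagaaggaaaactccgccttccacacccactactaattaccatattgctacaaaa
TNFRSF21: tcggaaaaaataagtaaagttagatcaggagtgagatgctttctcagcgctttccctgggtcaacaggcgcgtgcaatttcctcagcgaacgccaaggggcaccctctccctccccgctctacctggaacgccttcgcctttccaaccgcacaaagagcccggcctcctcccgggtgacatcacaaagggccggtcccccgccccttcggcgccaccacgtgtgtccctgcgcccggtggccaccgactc

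Library totals ran from 21056732 to 25502097 counts. RNF213 itself had 567, 650 and 556 CPM (counts scaled to library size) in KKU-100 with shRNF213#2 against 1259, 1003 and 1227 CPM with shControl, in the order of replicates 1 to 3. In YSCCC it had 152, 237 and 215 CPM with shRNF213#2 against 430, 381 and 529 CPM with shControl. In HuCCT1 it had 277, 423 and 284 CPM with shRNF213#2 against 394, 1260 and 430 CPM with shControl. RNF213 was thus lower in 9 of 9 pairs. The paired log2 fold changes were -0.97 in KKU-100 (edgeR adjusted p = 0.0462), -1.16 in YSCCC (adjusted p = 0.000307) and -0.89 in HuCCT1, where the test was not passed (adjusted p = 0.136). RNF213 in HuCCT1 did pass with no count filter (adjusted p = 0.00886) and when any 1 replicate was left out (adjusted p at most 0.0339), and in KKU-100 it missed the threshold when replicate 1 (0.0663) or replicate 3 (0.251) was left out. Of the epithelial markers, KRT19 had 0 to 4 counts and EPCAM 0 to 3 counts in the KKU-100 libraries, against 10795 to 29617 and 4947 to 8311 counts in YSCCC. CDH1 had 15 to 102 and CLDN4 11 to 31 counts in KKU-100, against 19733 to 35745 and 8290 to 10423 in YSCCC. KRT7 (1888 to 3696 counts), KRT8 and KRT18 were present in KKU-100 but lower. Of the 8 markers, 7 were called lower in KKU-100 shControl than in either other line, all but SOX9. Endothelial markers did not follow 1 line: CDH5 was highest in YSCCC (383 to 2461 counts, at most 13 in the other two lines), VWF in HuCCT1 (58 to 80 counts, against 4 to 23 in YSCCC), and PECAM1 had 34 to 132 counts in KKU-100 and 27 to 98 in YSCCC, while KDR had at most 5 and TEK at most 13 counts in any library. The leukocyte marker PTPRC had at most 52 counts in any library, and CD68, a lysosomal protein abundant in macrophages, had 993 to 2258. Their part in the results was not tested.

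In shControl cells the receptors were mostly more abundant than the ligands. Levels between genes are given in TPM, which are scaled to transcript length and library size, as means over 3 libraries with SD. The highest of the 10 in every line was TNFRSF12A, at 634 ± 134 TPM in KKU-100, 776 ± 105 TPM in YSCCC and 363 ± 72.7 TPM in HuCCT1. TNFRSF1A had 311 ± 65.3 TPM in KKU-100, 197 ± 11.6 TPM in YSCCC and 219 ± 44.8 TPM in HuCCT1. TNFRSF10B was second in KKU-100 at 400 ± 104 TPM and came after TNFRSF12A, TNFRSF21 and TNFRSF1A in YSCCC (47.1 ± 36.2 TPM) and HuCCT1 (103 ± 5.20 TPM). In HuCCT1 the ranges of TNFRSF12A and TNFRSF21 overlapped, as did those of TNFRSF21 and TNFRSF1A, whereas TNFRSF10B lay below all 3. In KKU-100 the ranges of TNFRSF10B and TNFRSF1A overlapped, and so did those of TNFRSF10A, TNFRSF21 and TNFSF10. At the low end, TNFSF18 had 0.803 ± 0.607 TPM and LTB 0.134 ± 0.117 TPM in KKU-100, and LTB 2.42 ± 2.71 TPM and TNFSF18 1.77 ± 1.26 TPM in YSCCC.

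**Figure D1:**
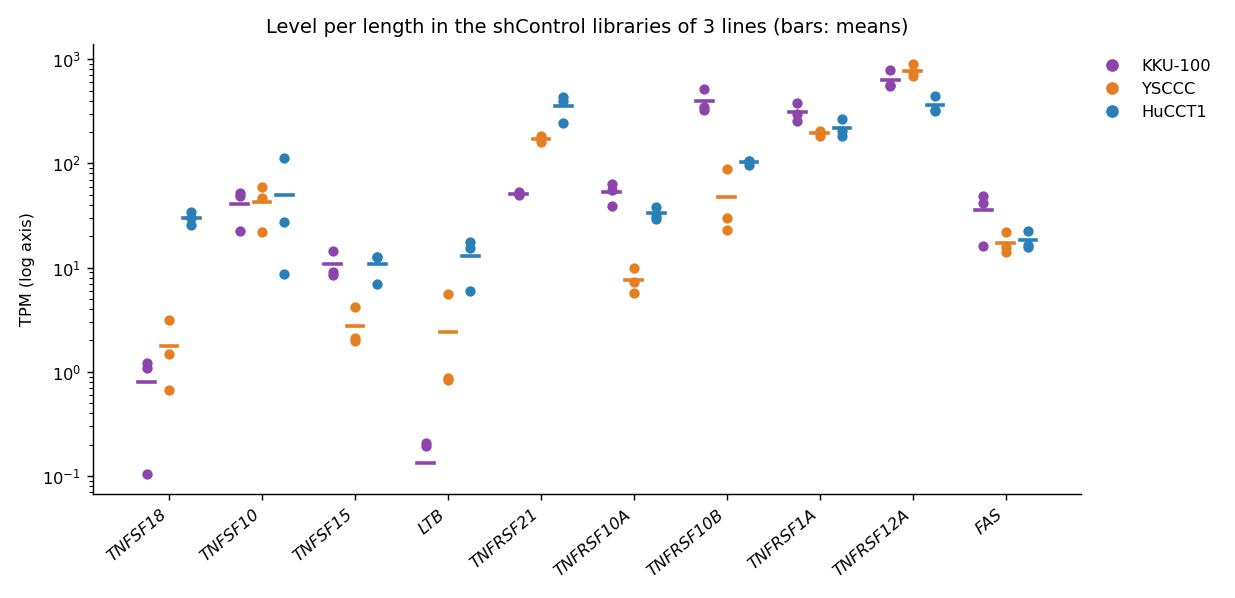
TPM on a log axis for the 10 genes in the 3 shControl libraries of KKU-100, YSCCC and HuCCT1 (points, with bars at the means); 1 KKU-100 library listed at 0 TPM for LTB cannot be drawn. TNFRSF12A is at the top in each line, TNFRSF10B ranges from 47.1 TPM in YSCCC to 400 TPM in KKU-100, and LTB and TNFSF18 are lowest in KKU-100.

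The TRAIL receptors differed between lines. In shControl libraries TNFRSF10B had 749, 513 and 478 CPM in KKU-100, 32.0, 40.5 and 108 CPM in YSCCC and 151, 168 and 140 CPM in HuCCT1, and the 3 lines did not overlap. TNFRSF10A had 67.4, 58.2 and 39.4 CPM in KKU-100, 6.65, 5.03 and 8.35 CPM in YSCCC and 30.5, 42.8 and 32.6 CPM in HuCCT1; here KKU-100 and HuCCT1 overlapped. On the log2 scale TNFRSF10B was 3.30 higher in KKU-100 than in YSCCC (SE 0.43, adjusted p = 9.57e-05) and 1.92 higher in KKU-100 than in HuCCT1 (SE 0.40, adjusted p = 0.00222). TNFRSF10A was 3.07 higher in KKU-100 than in YSCCC (SE 0.27, adjusted p = 8.38e-06). Against HuCCT1 TNFRSF10A was 0.64 higher in KKU-100 and did not pass (SE 0.25, adjusted p = 0.0519). That difference passed in 6 of 14 alternatives, DESeq2 and limma-voom among them. Both TNFRSF10D and TNFRSF11B, decoy receptors of TRAIL, were also lowest in YSCCC. TNFRSF10D averaged 67.0 ± 16 CPM in KKU-100, 0.402 ± 0.39 CPM in YSCCC and 32.7 ± 11 CPM in HuCCT1, and TNFRSF11B, the soluble receptor osteoprotegerin, averaged 450.2 ± 179 CPM, 1.38 ± 0.33 CPM and 97.4 ± 15 CPM in the same order. CASP8, the initiator caspase of these receptors, averaged 88.3 ± 5.8, 49.1 ± 5.9 and 69.7 ± 8.7 CPM, and CFLAR, its inhibitory relative, 149 ± 15, 44.8 ± 7.9 and 125 ± 27 CPM. All of these are levels in shControl libraries, n = 3 per line.

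TNFRSF21 ran the other way. It had 84.4, 88.3 and 85.2 CPM in KKU-100, 251, 281 and 245 CPM in YSCCC and 411, 770 and 656 CPM in HuCCT1, with no overlap between lines. It was 2.84 lower on the log2 scale in KKU-100 than in HuCCT1 (SE 0.23, adjusted p = 4.23e-06), 1.56 lower in KKU-100 than in YSCCC and 1.28 lower in YSCCC than in HuCCT1. Among the ligands, TNFSF18 stood out as a HuCCT1 gene, with 1.24, 1.07 and 0.0965 CPM in KKU-100, 1.36, 0.615 and 2.58 CPM in YSCCC and 34.2, 26.1 and 27.8 CPM in HuCCT1. Its receptor TNFRSF18 averaged 0.0298 ± 0.052 CPM in KKU-100, 0.0403 ± 0.041 CPM in YSCCC and 1.30 ± 0.37 CPM in HuCCT1. LTB had 1 to 5 counts per library in KKU-100, 9 to 64 in YSCCC and 64 to 212 in HuCCT1, while LTBR, its receptor, averaged 235 ± 55, 291 ± 9.6 and 288 ± 29.7 CPM and LTA, its partner, 0.310 ± 0.14, 0.165 ± 0.089 and 0.173 ± 0.081 CPM. TNFSF15 was 2.14 higher on the log2 scale in KKU-100 than in YSCCC (adjusted p = 0.000392), and its receptor TNFRSF25 averaged 0.489 ± 0.20 CPM in KKU-100, 7.99 ± 3.0 CPM in YSCCC and 6.25 ± 1.7 CPM in HuCCT1. FASLG, the ligand of FAS, had 0 counts in every KKU-100 library and at most 5 counts in any HuCCT1 library. These data are bulk, so fewer cells expressing a gene and less RNA per cell cannot be told apart.

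Of the 10 genes, 4 were higher and 3 lower in KKU-100 than in HuCCT1, where 27.3% of 18010 genes tested were higher and 30.1% lower. Between KKU-100 and YSCCC 5 were higher and 2 lower in KKU-100 (27.9% and 32.9% of all genes). Between YSCCC and HuCCT1 1 was higher and 6 were lower in YSCCC (30.2% and 28.1% of all genes). Most genes thus differed between lines, the members among them, and the 3 comparisons share their shControl libraries. The median log2 difference of the 10 genes was 0.24 in KKU-100 against HuCCT1, 0.47 in KKU-100 against YSCCC and -1.33 in YSCCC against HuCCT1, against medians of -0.01, -0.09 and 0.02 over all genes tested. FAS was 0.91 higher in KKU-100 than in HuCCT1 (adjusted p = 0.0458) and TNFRSF1A 0.51 higher (adjusted p = 0.0223), but FAS missed the threshold without any 1 of 7 of the 9 libraries, namely all but YSCCC shControl replicate 3 and KKU-100 shControl replicate 3 (adjusted p 0.0539 to 0.156). With limma-voom on all libraries FAS missed it as well (adjusted p = 0.0922). TNFRSF1A missed the threshold without HuCCT1 shControl replicate 1 (0.0752), HuCCT1 shControl replicate 2 (0.0636) or KKU-100 shControl replicate 2 (0.0893). For LTB in KKU-100 against YSCCC the log2 difference was -2.61, and -1.21 without YSCCC shControl replicate 3 (adjusted p = 0.182). The LTB call was also lost without KKU-100 shControl replicate 2 (0.0915) or replicate 3 (0.0666), and with limma-voom (0.0679). TNFRSF12A, lowest in HuCCT1, was no longer called against KKU-100 without HuCCT1 shControl replicate 2 (adjusted p = 0.0555), HuCCT1 shControl replicate 3 (0.0716) or KKU-100 shControl replicate 1 (0.0571), nor against YSCCC without HuCCT1 shControl replicate 3 (0.0582). TNFRSF10B in YSCCC against HuCCT1 lost its call without YSCCC shControl replicate 2 (adjusted p = 0.0514).

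The effect of the hairpin was tested within each line with the replicate number as a pair. In HuCCT1 the called gene was TNFSF18, a costimulatory ligand for T cells. TNFSF18 had 9.62, 8.86 and 14.001 CPM with shRNF213#2 against 34.2, 26.1 and 27.8 CPM with shControl in HuCCT1. Every shRNF213#2 library lay below every shControl library. It fell by 1.45 on the log2 scale (SE 0.16, adjusted p = 0.0215), and the 3 pairs gave -1.83, -1.56 and -0.99. It was the 1 gene of the 10 called in HuCCT1, lower, with none called higher, against a background of 0.0254% of 15747 genes lower and 0.114% higher. In KKU-100 it had 1.91, 0.759 and 0.488 CPM with shRNF213#2 against 1.24, 1.07 and 0.0965 CPM with shControl, and the groups overlapped (adjusted p = 0.684). In YSCCC it had 0.156, 0.192 and 4.44 CPM with shRNF213#2 against 1.36, 0.615 and 2.58 CPM with shControl. There pairs 1 and 2 were lower and pair 3 higher with the hairpin. The YSCCC log2 fold change was -0.52 (SE 0.51, adjusted p = 0.606), and -2.43 without replicate 3 (adjusted p = 0.00169).

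LTB fell in YSCCC, where it was scarce. It had 3, 2 and 14 counts with shRNF213#2 against 10, 9 and 64 counts with shControl, that is 0.117, 0.0768 and 0.505 CPM against 0.413, 0.346 and 2.32 CPM. All 3 pairs were lower with the hairpin, the groups overlapped through replicate 3, and replicate 3 held most of the counts in both arms. The log2 fold change was -2.10 (SE 0.39, adjusted p = 0.00609), and without replicate 3 LTB had too few counts to be tested. In HuCCT1, where LTB was most abundant, it had 10.2, 3.90 and 7.19 CPM with shRNF213#2 against 8.66, 3.00 and 7.33 CPM with shControl (log2 fold change 0.18, adjusted p = 0.687). In KKU-100 it had 3, 4 and 7 counts with shRNF213#2 against 5, 1 and 4 counts with shControl, under the count filter, so 9 of the 10 genes were tested there. The difference of the LTB effect was 2.45 for KKU-100 minus YSCCC (adjusted p = 0.0608) and -2.28 for YSCCC minus HuCCT1 (adjusted p = 0.0762).

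TNFSF15, a ligand of endothelial and inflamed tissue, rose in YSCCC. It had 8.69, 10.5 and 16.0 CPM with shRNF213#2 against 5.82, 6.03 and 10.8 CPM with shControl. Each pair was higher with the hairpin by a similar factor, while replicate 3 was higher than the rest in both arms, so the groups overlapped. The log2 fold change was 0.65 (SE 0.14, adjusted p = 0.0156); it missed the threshold without replicate 1 (adjusted p = 0.115) or replicate 2 (adjusted p = 0.0967). In KKU-100 TNFSF15 had 36.1, 58.1 and 41.5 CPM with shRNF213#2 against 26.5, 28.1 and 43.5 CPM with shControl (0.47, adjusted p = 0.303). In HuCCT1 it had 25.1, 27.6 and 15.01 CPM with shRNF213#2 against 38.9, 41.0 and 20.6 CPM with shControl. All 3 HuCCT1 pairs were lower, and the change of -0.56 did not pass (adjusted p = 0.0748). This change passed with DESeq2 (adjusted p = 0.0092), with no count filter, and without replicate 2 or replicate 3. The difference of effects was 1.20 for YSCCC minus HuCCT1 (SE 0.24, adjusted p = 0.0814) and 1.03 for KKU-100 minus HuCCT1 (SE 0.23, adjusted p = 0.0815).

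TNFRSF21 was the 1 gene of the 10 called in more than 1 line. It had 130, 145 and 137 CPM with shRNF213#2 against 84.4, 88.3 and 85.2 CPM with shControl in KKU-100. In YSCCC it had 367, 483 and 340 CPM with shRNF213#2 against 251, 281 and 245 CPM with shControl. In both lines every shRNF213#2 library lay above every shControl library. In HuCCT1 it had 512, 806 and 685 CPM with shRNF213#2 against 411, 770 and 656 CPM with shControl; each pair was higher with the hairpin and the groups overlapped. It rose by 0.67 on the log2 scale in KKU-100 (SE 0.11, adjusted p = 0.0476) and by 0.60 in YSCCC (SE 0.09, adjusted p = 0.00192), and the HuCCT1 value was 0.15 (SE 0.09, adjusted p = 0.559). In KKU-100 the adjusted p became 0.0619 when replicate 1 was left out and 0.222 when replicate 3 was, and the YSCCC call held without each replicate in turn. Averaged over the 3 lines TNFRSF21 rose by 0.47 (SE 0.05, adjusted p = 0.00046), higher in 9 of 9 pairs. The difference of its effect was 0.52 for KKU-100 minus HuCCT1 (adjusted p = 0.122), 0.45 for YSCCC minus HuCCT1 (adjusted p = 0.262) and 0.07 for KKU-100 minus YSCCC (adjusted p = 0.86).

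TNFRSF10B fell in YSCCC. It had 25.2, 30.7 and 86.0 CPM with shRNF213#2 against 32.0, 40.5 and 108 CPM with shControl. All 3 pairs were lower with the hairpin, and the groups overlapped because both replicate 3 libraries were high, with a mean 3.02 times that of the other 4. The log2 fold change was -0.36 (SE 0.10, adjusted p = 0.0392), and it missed the threshold without replicate 1, 2 or 3 (adjusted p = 0.201, 0.141 and 0.0536). Beside it in replicate 3, chosen after values were seen, stood genes of the endoplasmic reticulum stress response: DDIT3, a transcription factor known to act on TNFRSF10B, had 82.3 CPM with shRNF213#2 and 98.1 CPM with shControl, against 19.7 to 33.1 CPM in the other 4 YSCCC libraries. HSPA5, an endoplasmic reticulum chaperone, had 2189 CPM with shRNF213#2 and 3210 CPM with shControl against 793 to 864 CPM. Their part in the level of TNFRSF10B was not tested. In KKU-100 TNFRSF10B had 673, 533 and 518 CPM with shRNF213#2 against 749, 513 and 478 CPM with shControl (0.0031, adjusted p = 0.994), and in HuCCT1 its log2 fold change was -0.20 (adjusted p = 0.437). RHOBTB2, which overlaps TNFRSF10B on the other strand, had 88 to 1243 counts per library, and whether counting used strand was not given in the sources used here.

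The remaining receptors did not pass in any line. TNFRSF1A in KKU-100 had 316, 330 and 351 CPM with shRNF213#2 against 253, 308 and 261 CPM with shControl. These groups did not overlap, and the log2 fold change of 0.28 had an adjusted p of 0.303. TNFRSF12A in KKU-100 had 330, 253 and 244 CPM with shRNF213#2 against 423, 303 and 308 CPM with shControl, lower in 3 of 3 pairs (-0.32, adjusted p = 0.23), and it was lower in 3 of 3 pairs in YSCCC (-0.19, adjusted p = 0.239). FAS had log2 fold changes of -0.16 in KKU-100, 0.11 in YSCCC and -0.17 in HuCCT1, and TNFRSF10A of 0.04, -0.05 and -0.05. FAS shares its locus with ACTA2 on the other strand (17 to 308 counts), and TNFRSF10A with AC100861.1 (25 to 207 counts).

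**Figure D2:**
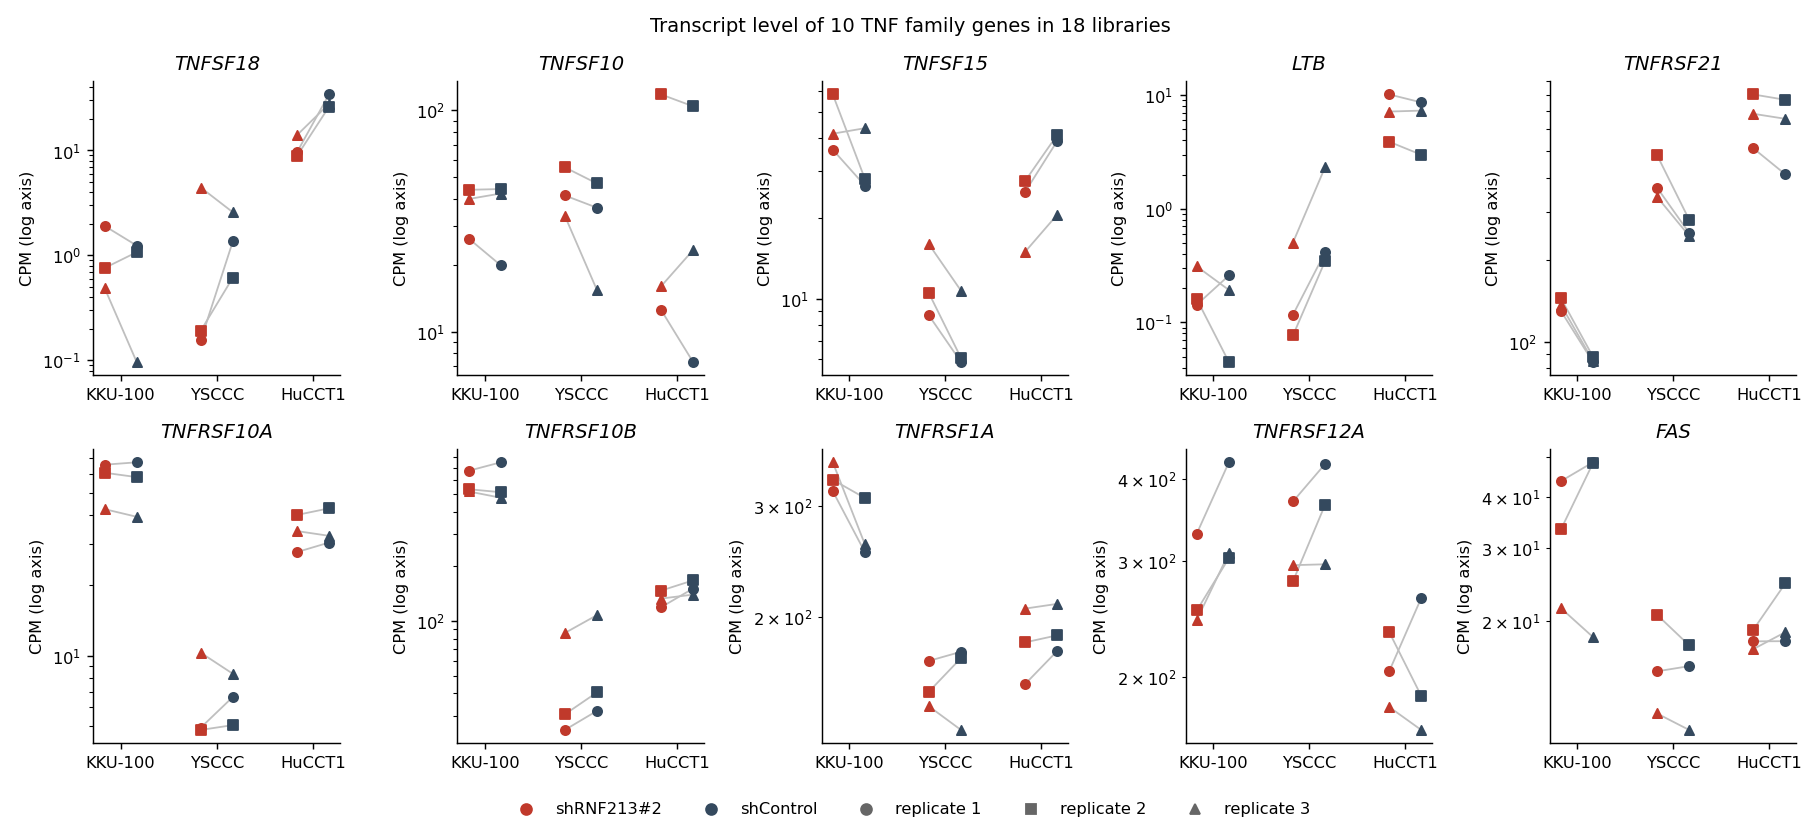
CPM on a log axis for each of the 10 genes, with shRNF213#2 libraries (red) left of shControl libraries (dark blue) in each line, replicate numbers as shapes and grey lines joining pairs. TNFRSF21 is higher with shRNF213#2 in all 9 pairs, TNFSF18 is lower in the 3 HuCCT1 pairs, and LTB and TNFRSF10B are lower in the 3 YSCCC pairs.

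Counted over the 10 genes, 1 was called in KKU-100, higher (0.302% of 14915 genes higher, 0.141% lower). In YSCCC 2 were called higher and 2 lower (3.69% and 4.56% of 16932 genes). In the mean over lines 1 was called higher and none lower (1.43% and 1.47% of 19143 genes). The median log2 fold change of the members was 0.09 in KKU-100, -0.04 in YSCCC and -0.07 in HuCCT1, against 0.00017, 0.0055 and -0.0015 over all genes tested. In edgeR with the count filter and all libraries, 0 of the 10 differed in effect between lines: the backgrounds were 0.162% higher and 0.0731% lower for KKU-100 minus HuCCT1, 1.64% and 0.993% for KKU-100 minus YSCCC, and 0.0366% and 0.0104% for YSCCC minus HuCCT1. This count depends on the setting: edgeR with no count filter and DESeq2 both called TNFSF15 and LTB in YSCCC minus HuCCT1, TNFSF15 in KKU-100 minus HuCCT1 and LTB in KKU-100 minus YSCCC. DESeq2 also called TNFRSF21 in KKU-100 minus HuCCT1. Leaving out 1 KKU-100 replicate in edgeR called TNFSF15 in YSCCC minus HuCCT1 (without replicate 2 or 3) and in KKU-100 minus HuCCT1 (without replicate 3), and LTB in YSCCC minus HuCCT1 (without replicate 1 or 2) and in KKU-100 minus YSCCC (without replicate 1). The genes with an unadjusted p under 0.05 in these 3 edgeR tests numbered 2391, 3477 and 1690.

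Without the replicate pairing none of the calls within lines remained: the adjusted p was 0.362 for TNFRSF21 in KKU-100, 0.921 for TNFRSF21 in YSCCC, 0.631 for TNFSF18 in HuCCT1 and 0.999 for LTB, TNFSF15 and TNFRSF10B in YSCCC, and TNFRSF21 over the mean of lines had 0.222.

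**Figure D3:**
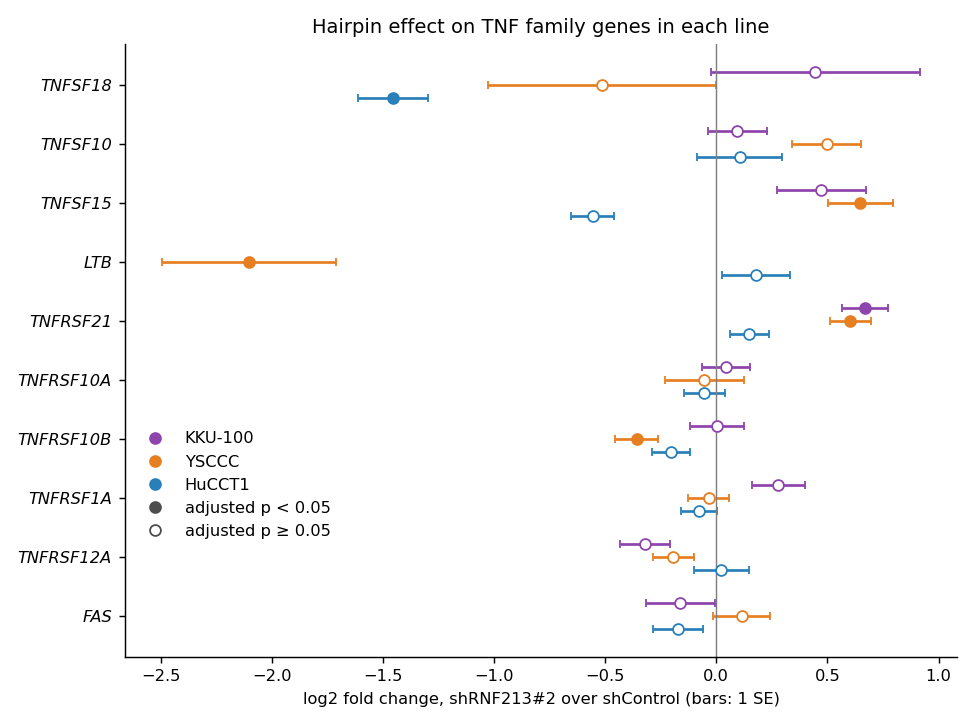
Log2 fold change of shRNF213#2 over shControl, with bars of 1 SE, for the 10 genes in KKU-100 (purple), YSCCC (orange) and HuCCT1 (blue); filled points passed an adjusted p of 0.05, and LTB was not tested in KKU-100. Filled points are TNFSF18 in HuCCT1 (-1.45), LTB (-2.10), TNFSF15 (0.65), TNFRSF21 (0.60) and TNFRSF10B (-0.36) in YSCCC, and TNFRSF21 in KKU-100 (0.67).

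TNFSF10 varied more between replicates of HuCCT1 than between hairpins. It had 12.6, 118 and 16.1 CPM with shRNF213#2 against 7.31, 104 and 23.4 CPM with shControl in HuCCT1. Both replicate 2 libraries were high, at a mean of 111 CPM, or 7.49-fold the mean of 14.8 CPM of the other 4. The list of 30 interferon-stimulated genes was chosen with earlier results of these data known. These genes summed to 11874 CPM with shRNF213#2 and 12121 CPM with shControl in replicate 2. Their mean sum in the other 4 libraries was 1710 CPM, a 7.02-fold difference. In YSCCC, where that sum was 1094 to 1356 CPM in every library, TNFSF10 had 41.3, 55.3 and 33.4 CPM with shRNF213#2 against 36.4, 46.8 and 15.5 CPM with shControl. Each pair was higher with the hairpin, and the log2 fold change of 0.50 did not pass (adjusted p = 0.0689). This YSCCC change did pass with no count filter and with DESeq2. In KKU-100, with a sum of 11773 to 19904 CPM, TNFSF10 had 26.4, 43.8 and 39.8 CPM with shRNF213#2 against 20.0, 44.2 and 42.2 CPM with shControl (0.09, adjusted p = 0.768). The TNFSF10 levels of KKU-100 and YSCCC thus overlapped, while their sums of interferon-stimulated genes did not. Between lines its shControl level did not differ beyond the spread: the log2 difference from HuCCT1 was -0.35 in KKU-100 (adjusted p = 0.722), and 1.19 without HuCCT1 shControl replicate 2 (adjusted p = 0.122). The genes most like TNFSF10 by Pearson correlation of log2 CPM over the 18 libraries, which share lines and replicate numbers, were BMPR2 (0.741), GBP4 (0.729) and MOV10 (0.727). For TNFSF18 they were ERBIN (0.958), FNBP1 (0.954) and AREG (0.954), and for LTB ARHGEF17 (0.971), PIK3CD (0.97) and SYT13 (0.964).

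**Figure D4:**
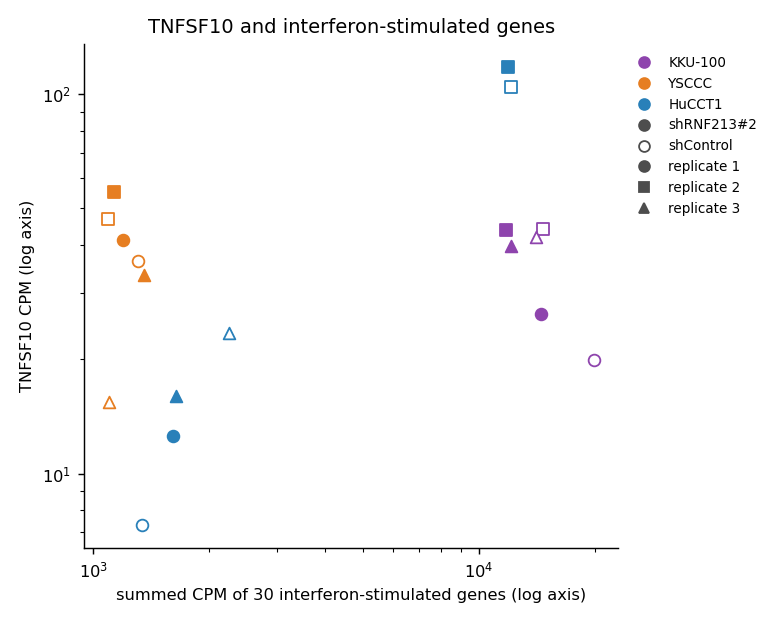
TNFSF10 CPM against the summed CPM of 30 interferon-stimulated genes, both on log axes, for the 18 libraries (colours for lines, filled for shRNF213#2, open for shControl, shapes for replicate numbers). The 2 replicate 2 libraries of HuCCT1 sit at 104 and 118 CPM of TNFSF10, apart from the other 4 at 7.31 to 23.4 CPM, while KKU-100 has high sums at 20.0 to 44.2 CPM of TNFSF10.

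The rest of the pathway was read from lists of family members and signalling components. For the counts in YSCCC, 4.56% of all genes tested fell and 3.69% rose there. None of the 14 other TNF family ligands on the list passed in any line (7 tested in KKU-100, 5 in YSCCC and 9 in HuCCT1). Of 3 other death domain receptors NGFR, the neurotrophin receptor, fell in YSCCC by 1.51 (adjusted p = 0.0073) and none passed elsewhere. Of 20 other receptors TNFRSF1B, the second TNF receptor, fell in YSCCC by 0.65 (adjusted p = 0.0111) among 11 tested. Among 20 death signalling genes BCL2L1, an anti-apoptotic mitochondrial protein, fell by 0.47 in YSCCC (adjusted p = 0.0366). This was 1 of 19 tested there, near the share of all genes that fell. The NGFR call was lost without replicate 1, and those of TNFRSF1B and BCL2L1 without replicate 1 or 2. CASP8, FADD and CFLAR did not pass in any line. BCL2L1 had 0.48 in KKU-100 (adjusted p = 0.172), and its difference between the lines, KKU-100 minus YSCCC, was 0.94 (SE 0.19, adjusted p = 0.0207; up to 0.091 with 1 replicate left out). The median log2 fold change of the death signalling list was 0.05 in KKU-100, -0.11 in YSCCC and -0.07 in HuCCT1.

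Adaptors and ubiquitin editors act beneath the receptors. In YSCCC 5 of 16 fell and 1 rose, where 4.56% of all genes tested fell and 3.69% rose, and in KKU-100 and HuCCT1 none of the 16 passed in edgeR. TNFAIP3, the A20 ubiquitin editor that restrains NF-kappaB, fell by 0.90 in YSCCC (SE 0.11, adjusted p = 0.000521), and had -0.72 in KKU-100 (adjusted p = 0.0759) and -0.19 in HuCCT1 (adjusted p = 0.474). CYLD and OTULIN, deubiquitinases of the same pathway, fell by 0.73 and 0.54 in YSCCC. TRAF2 fell there by 0.46 (adjusted p = 0.0211) and TNIP1 by 0.32 (adjusted p = 0.0452), and neither call was followed with replicates left out. TAB2, which couples ubiquitin chains to the kinase MAP3K7, rose by 0.51. The OTULIN call was lost without replicate 1 (adjusted p = 0.0695) and the TAB2 call without replicate 1 or 2 (up to 0.098). In the mean over lines TNFAIP3 (-0.60, adjusted p = 0.000299), OTULIN (-0.35) and TRAF2 (-0.26, adjusted p = 0.0456) fell and TAB2 (0.31) and TRAF3 (0.27) rose. Over all genes tested 1.47% fell and 1.43% rose. TRAF3 missed the threshold in 5 of 14 alternatives, and the TRAF2 call was not followed through them. CYLD had 0.37 in KKU-100 (adjusted p = 0.168), and its effect there exceeded that in YSCCC by 1.10 (SE 0.14, adjusted p = 0.00326). The list's median log2 fold change was -0.05 in KKU-100, -0.01 in YSCCC and -0.0029 in HuCCT1.

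**Figure D5:**
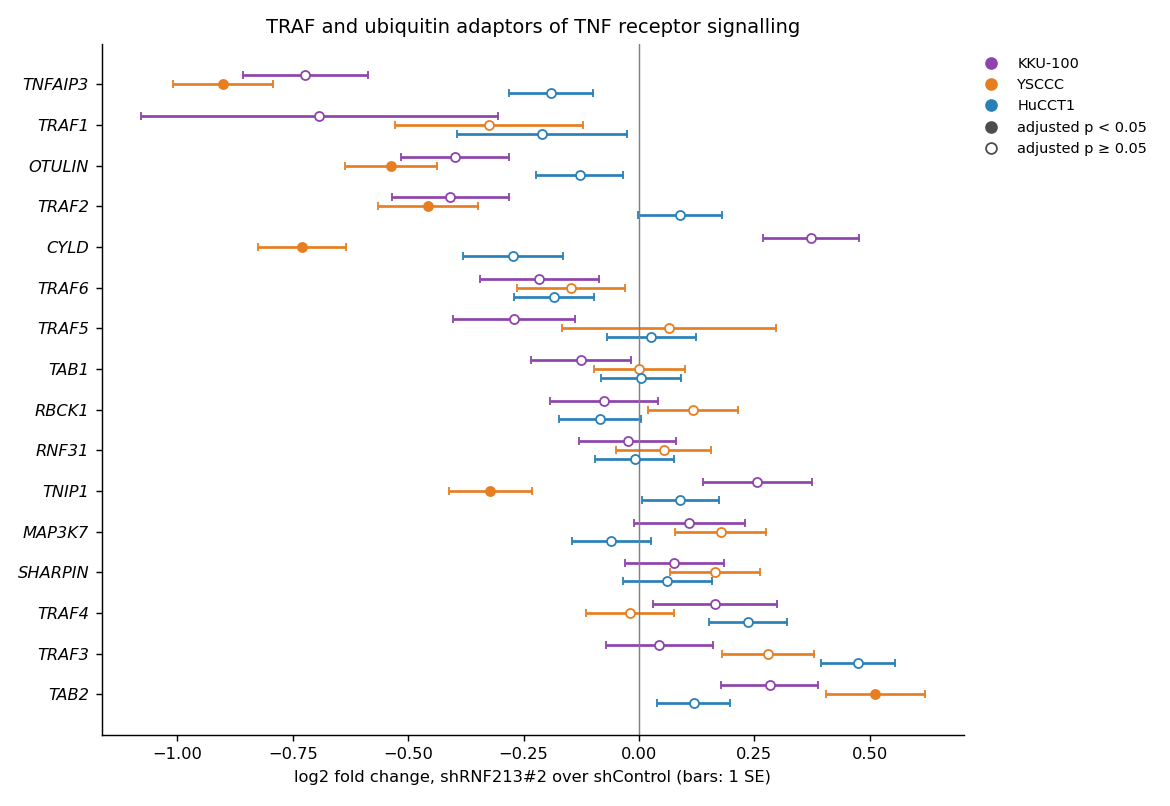
Log2 fold change of shRNF213#2 over shControl, with bars of 1 SE, for the 16 TRAF and ubiquitin adaptors in KKU-100 (purple), YSCCC (orange) and HuCCT1 (blue), filled where the adjusted p was below 0.05. The 6 filled points are all YSCCC, with TNFAIP3 (-0.90) and CYLD (-0.73) farthest to the left and TAB2 (0.51) to the right. CYLD and TNIP1 have values on opposite sides of 0 in KKU-100 and YSCCC. So do RBCK1, RNF31, TAB1, TRAF4 and TRAF5, which passed in neither line.

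Of 21 NF-kappaB pathway genes and targets 4 fell in YSCCC among 20 tested, and none rose (4.56% and 3.69% of all genes). These were IL32, a cytokine, by 1.52 (adjusted p = 0.000267), RELB by 0.50 and MAP3K14 by 0.49, both of the non-canonical pathway, and the inhibitor NFKBIE by 0.47. The IL32 call held without each replicate in turn, whereas NFKBIE lost its call without any 1 replicate (adjusted p 0.0681 to 0.203), RELB without replicate 1 or 2 (up to 0.178) and MAP3K14 without replicate 1 (0.0574). None of the 21 passed in KKU-100 or HuCCT1. Over the mean of lines IL32 (-0.58, adjusted p = 0.0312) and NFKBIE (-0.33, adjusted p = 0.0288) fell, but each missed the threshold in 7 of 14 alternatives, for IL32 without any 1 of the HuCCT1 or YSCCC replicates and without the pairing. Of 30 interferon-stimulated genes, 3 fell in KKU-100, namely IFIT2 by 1.41 (adjusted p = 0.0225), RSAD2 by 1.24 and OASL by 1.00, and none rose (0.141% and 0.302% of all genes). IFIT2 and RSAD2 lost the call without replicate 3 (adjusted p = 0.112 and 0.0784) and OASL without replicate 1 or 3 (up to 0.139). In YSCCC IFI44L rose by 0.93 (adjusted p = 0.0257) and IFI44 by 0.63 among 29 tested, and none fell; IFI44L lost its call without any 1 replicate (0.0597 to 0.214) and IFI44 without replicate 1 (0.0587). In HuCCT1 none of 29 passed, with IFIT2 at -0.70 (adjusted p = 0.0748). Over the mean of lines 3 of the 30 fell and none rose, where 1.47% of all genes fell and 1.43% rose. These were IFIT2 (-0.78, adjusted p = 0.000219), DDX58 (-0.34, adjusted p = 0.034) and IFIH1 (-0.28, adjusted p = 0.0399). IFIT2 missed the threshold in 1 of 14 alternatives, the fit without the pairing, DDX58 in 6 of 14 and IFIH1 in 8 of 14. Of 16 p53 targets TP53I3 fell by 0.59 in YSCCC (adjusted p = 0.0467, lost with DESeq2 and without replicate 1 or 2), where 4.56% of all genes fell. SESN2 fell by 0.37 in the mean over lines (adjusted p = 0.0249, missed in 6 of 14 alternatives), where 1.47% of all genes fell. TNFRSF10B and FAS, which are also known as p53 targets, are given above. Without the replicate pairing 0 genes passed in YSCCC and 2 in KKU-100, and these list genes were not among them; RNF213 had an adjusted p of 0.362 in KKU-100 and 0.883 in YSCCC.

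Markers of other cell types changed beside these calls. Over all genes tested 3.69% rose and 4.56% fell in YSCCC, and 1.43% rose and 1.47% fell in the mean over lines. Of 7 stromal and endothelial markers tested in YSCCC, CDH5 (0.58) and PECAM1 (1.12) rose and COL3A1 (-1.17) and COL1A1 (-0.61) fell, and their summed level over 12 genes was 69.5 to 353 CPM with shRNF213#2 and 79.9 to 254 CPM with shControl. Of 7 immune markers tested there ITGAM fell (-1.62), with sums of 72.6 to 79.7 CPM with shRNF213#2 and 59.7 to 74.9 CPM with shControl. Of 8 epithelial markers CDH1 fell there (-0.57). Of these 6, only COL3A1 kept its call without each replicate in turn. No marker passed in KKU-100 or HuCCT1. In the mean over lines LYZ, a lysozyme of myeloid and glandular cells, rose by 1.24 (adjusted p = 0.0273, missed in 7 of 13 alternatives). LUM, a stromal proteoglycan, rose by 1.24 (adjusted p = 0.0177, missed in 4 of 14). LYZ had 0 to 7 counts in KKU-100, 10 to 24 in HuCCT1 and 31 to 74 in YSCCC. LUM had 2 to 18 counts in KKU-100, 46 to 399 in HuCCT1 and 824 to 6187 in YSCCC. The low counts limit the precision of both means. The part of these markers in the results was not tested.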

How the data were processed

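Messenger RNA libraries (TruSeq, 750 ng of total RNA) of 18 samples were used, 3 per line and hairpin. Per the file headers, the authors deposited raw counts, TPM, FPKM, a coverage signal and counts scaled with DESeq2 for 36601 genes of GRCh38. Per the submitters' processing notes the tools were STAR 2.5.1b, HTSeq 0.6.1p1, DESeq2 1.34.0, StringTie 2.1.6, FastQC 0.11.9 and Picard 1.139; for their roles, filters and strand mode nothing was given in the sources used here. The deposited FPKM, coverage and DESeq2-scaled values were not used in any test, and the deposited TPM only give levels between genes.

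Counts were tested with edgeR 4.0.16 (R 4.3.3), quasi-likelihood F test, TMM factors and filterByExpr (minimum count 10, minimum total 15). Two-sided p-values were adjusted by Benjamini-Hochberg across all genes tested, with a threshold of 0.05. Each line was fitted alone with the replicate number as a block; all 18 libraries with line-specific pairs gave the mean and the differences of effects; the 9 shControl libraries were fitted without a block. The SE given for edgeR effects is the absolute log2 fold change divided by the square root of the F statistic. CPM use TMM-scaled totals. Numbers pair samples within lines: deviations from group means of libraries with the same number correlated at 0.407 to 0.728 in KKU-100, 0.722 to 0.902 in YSCCC and 0.709 to 0.788 in HuCCT1, above the minimum of 0.1; libraries of different numbers reached 0.659 in YSCCC. The labels do not say what a number marks. Alternatives were DESeq2 1.42.0, limma-voom 3.58.1, DESeq2 size factors, no count filter, no block and each replicate left out. The scripts were tested on simulated data. Named genes were the 10 members, RNF213, up to 4 called genes per list and comparison with the largest change, overlapping genes, and for 3 ligands the 3 most correlated of 11868 genes averaging 5 CPM or more; other list genes named in the text were added after values were seen. The members and lists were chosen with earlier results of these data known.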

Additional observations from a re-analysis of the deposited data

Results flagged for a closer look

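Differences of the hairpin effect between lines passed an interaction test for 8 genes of the pathway and marker lists, all for KKU-100 minus YSCCC and none for the 10 TNF family members. That comparison called 503 of all 19143 genes (1.64% higher, 0.993% lower), against 45 for KKU-100 minus HuCCT1 and 9 for YSCCC minus HuCCT1. The 8 were 1 of 20 death signalling genes, 2 of 16 adaptors, 3 of 30 interferon-stimulated genes and 2 of 9 stromal and endothelial markers tested. The other lists had none. On the log2 scale BCL2L1 differed by 0.94 (0.48 in KKU-100 and -0.47 in YSCCC, adjusted p = 0.0207), CYLD by 1.10 (0.37 in KKU-100 and -0.73 in YSCCC, adjusted p = 0.00326) and TNIP1 by 0.58 (0.26 in KKU-100 and -0.32 in YSCCC, adjusted p = 0.0312). The interferon-stimulated genes OASL (-1.47, adjusted p = 0.0361), IFIT2 (-1.18, adjusted p = 0.005) and IFIT3 (-1.10, adjusted p = 0.0234) had lower effects in KKU-100 than in YSCCC. The stromal markers DCN (2.87, adjusted p = 0.0372) and COL3A1 (2.79, adjusted p = 0.00807) had higher effects in KKU-100 than in YSCCC. DCN had 1 to 21 counts in the KKU-100 libraries and 59 to 86 in those of YSCCC, and was not tested in KKU-100 alone. All are edgeR fits with replicate pairs. Without the pairs none of the 8 passed. CYLD, IFIT2 and COL3A1 passed in every other alternative. Counting the fit without pairs, the DCN call was lost in 9 of 13 alternatives (limma-voom among them) and the TNIP1 call in 7 of 14. On the same count OASL lost its call in 6 of 14 (DESeq2 among them), and BCL2L1 and IFIT3 in 4 of 14 each.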

How the results depend on the processing

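Without the replicate block, genes called numbered 2 for the hairpin effect in KKU-100, 0 for the hairpin effect in YSCCC, 0 for the hairpin effect in HuCCT1, 28 for the mean hairpin effect over lines, 0 for the difference of hairpin effect, KKU-100 minus HuCCT1, 0 for the difference of hairpin effect, KKU-100 minus YSCCC, and 0 for the difference of hairpin effect, YSCCC minus HuCCT1, against 66, 1397, 22, 555, 45, 503 and 9 with it. No filter gave 193, 2160, 117, 907, 273, 894 and 125 in the same order. DESeq2 gave 418 for KKU-100, 116 for HuCCT1, 1054 for the mean, and 303, 1060 and 154 for the differences. Limma-voom gave 20 for KKU-100 minus HuCCT1 and 4 for YSCCC minus HuCCT1. Leaving out each replicate gave 9 to 420, 313 to 1856, 18 to 335, 226 to 1011, 4 to 290, 156 to 839 and 0 to 44. Counts of the shControl comparisons stayed within 1.5 times. The cause of these shifts was not tested.

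Of 354 alternatives of the 28 member results that passed, 320 passed too, 34 did not, and 0 changed sign. Most of the 28 were differences in shControl level between lines, so these totals say little of the hairpin calls. Among those, TNFRSF10B in YSCCC was lost in 4 of 8 alternatives, and TNFSF15 in YSCCC and TNFRSF21 in KKU-100 in 3 of 8 each. TNFSF18 in HuCCT1 and TNFRSF21 in YSCCC were lost in 1 of 8, LTB in YSCCC in 1 of 6 and TNFRSF21 over the mean of lines in 1 of 14. Of 576 alternatives of results that had not passed, 30 passed and 32 changed sign. Without the replicate block TNFSF18 in YSCCC had 0.083 and TNFRSF10B in KKU-100 -0.016 (-0.0024 with no filter). TNFSF10 against HuCCT1 was 0.19 with limma-voom and 0.066 with a replicate block in YSCCC, and 0.41 and 0.18 in KKU-100. Leaving out replicates, the hairpin effect ranged over -0.34 to 0.027 for FAS, -0.038 to 0.19 for TNFSF10 and -0.049 to 0.094 for TNFRSF10B in KKU-100; over -0.26 to 0.12 for TNFRSF10A, -0.11 to 0.031 for TNFRSF1A and -2.43 to 0.18 for TNFSF18 in YSCCC; and over -0.13 to 0.22 for TNFRSF12A and -0.15 to 0.43 for TNFSF10 in HuCCT1. Differences of effects ranged over -0.16 to 0.81 for LTB (KKU-100 minus HuCCT1), -0.46 to 0.10 for TNFSF15 (KKU-100 minus YSCCC) and -0.99 to 1.73 for TNFSF18 (YSCCC minus HuCCT1). Levels ranged over -0.86 to 1.19 for TNFSF10 and -0.29 to 0.13 for TNFSF15 (KKU-100 against HuCCT1), -0.24 to 0.43 for TNFSF10 and -0.21 to 0.083 for TNFRSF12A (KKU-100 against YSCCC), and -0.996 to 1.05 for TNFSF10 and -0.96 to 0.077 for RNF213 (YSCCC against HuCCT1).

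DESeq2 gave no adjusted p for LTB in YSCCC. LTB had at most 14 counts in every KKU-100 and YSCCC library but YSCCC shControl replicate 3, which limits the precision of its folds.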
